A study of Mus musculus with 4 samples.

Results

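The genes described here are those of oxidative phosphorylation, taken by name: every row of the deposited matrix whose symbol begins with mt-, Ndufa, Ndufb, Ndufc, Ndufs, Ndufv, Cox4 to Cox8, Uqcr or Atp5. The rule found 103 of 32285 genes, of which 13 are encoded by mitochondrial DNA and 90 by the nucleus. It uses no measured value. It leaves out complex II and most assembly factors of complexes III and IV, and it takes in 8 assembly factors of complex I. A minimum of 500 unique molecular identifiers (UMIs, each standing for 1 captured RNA molecule) in all and 3 in each library was passed by 98 members. Those below it were mt-Nd6 with 243 UMIs, Cox4i2 with 311, Cox8b with 347, Cox7b2 with 72 and Cox8c with 1.

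The respiratory chain passes electrons from NADH and succinate to oxygen through complexes I to IV and pumps protons across the inner mitochondrial membrane, and complex V, the ATP synthase, uses the proton gradient to make ATP. Mitochondrial DNA encodes the core membrane subunits of complexes I, III, IV and V, whereas all other subunits are made in the cytosol from nuclear genes and imported, so that both genomes must supply each of these complexes. Mitochondrial messenger RNAs are cut from long polycistronic transcripts, and most carry a short poly(A) tail. In the olfactory bulb, mitochondria are abundant in the dendrites and synapses of mitral, tufted and periglomerular neurons. Several subunits of complex IV have a second, tissue-restricted isoform, known from skeletal and heart muscle, testis, lung or cells under low oxygen.

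Visium spatial gene expression was measured on fresh-frozen coronal sections of mouse olfactory bulb, in which poly(A) RNA is caught on barcoded spots that can each hold several cells. The labels give 1 mouse of genotype control and 1 of genotype mutant, both taken at 5 months, with 2 capture areas from each. The mutant carried a transgenic soluble form of VEGFR1, made in the brain under the tetracycline-regulated camk2a-tTA driver, and its treatment label is blockade of VEGF at E13.5. The control mouse gave a pair of sections on 1 area and a single section on the other, and the mutant gave a pair on each. The protocol text on the transgene stands on the control samples' labels too, and no label names the alleles of the control mouse. The study's design text describes the mutant as a mouse with a degenerated olfactory bulb. The camk2a driver is known to act in forebrain neurons, and a block that began before birth leaves months of later change between the treatment and the measurement.

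All spots lie in a single matrix, in which a number from 1 to 4 at the end of each barcode tells the capture areas, called libraries here, apart. No label ties a number to a mouse. The control and the mutant mouse were therefore not compared, each library is given by its own value, and there is no replicate of any value and no test. Intervals are exact, at the 95% level for libraries fixed beforehand, and cover counting error only. Most ratios between libraries are of the highest over the lowest, picked from the same counts. Their intervals do not allow for that choice and can exclude 1 too often.

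The members with matches in RefSeq's promoter table are shown first by short words from their promoters, since most nuclear members were highest in the same library (below). Of the 90 nuclear members, 72 were matched to 77 promoters of 300 bases, 250 before and 50 after the annotated start, on GRCm38.p6. The words were searched on both strands as exact letters, and each is a short form of a site known for a factor of mitochondrial gene control: CGCATGCG for NRF1, CTTCCGG for ETS factors such as GABP, AAGATGGCG for YY1 and TCAAGGTCA for oestrogen-related receptors. The reverse of the ETS word, CCGGAAG, ends with the 3 letters that open the YY1 word, so these may overlap. The windows below hold the words in capitals, in lower case what lies beside them, and run 5′ to 3′ on the strand of the gene.

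Ndufa11: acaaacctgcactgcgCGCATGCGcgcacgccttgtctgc
Cox6a1: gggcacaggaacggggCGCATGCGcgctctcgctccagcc
Atp5g2: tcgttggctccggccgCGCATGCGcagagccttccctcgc
Atp5k: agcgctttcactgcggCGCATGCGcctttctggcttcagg
Ndufs3: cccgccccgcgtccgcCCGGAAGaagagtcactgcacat
Uqcr11: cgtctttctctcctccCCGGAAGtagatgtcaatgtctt
Cox6b1: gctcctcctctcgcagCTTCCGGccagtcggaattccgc
Atp5j: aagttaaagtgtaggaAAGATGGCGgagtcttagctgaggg

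The windows were chosen to show the NRF1, ETS and YY1 words in genes of complexes I, III, IV and V, and all lie upstream of the annotated start. Distances are from the first letter of the word to that start, and coordinates are those of the whole window printed. The NRF1 word stands 59 bases before the start of Ndufa11, in the window chr17:56717687-56717726 on the plus strand. On the minus strand it stands 161 bases before that of Cox6a1 in chr5:115349096-115349135, 41 bases before that of Atp5g2 in chr15:102671065-102671104 and 49 bases before that of Atp5k in chr5:108434425-108434464. The ETS word stands 27 bases before the start of Ndufs3 in chr2:90904726-90904764, 66 bases before that of Uqcr11 in chr10:80406865-80406903 and 28 bases before that of Cox6b1 in chr7:30626120-30626158, all on the minus strand. The YY1 word of Atp5j stands 88 bases before the start in the window chr16:84835040-84835080, also on the minus strand.

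The NRF1 word was found in promoters of 11 of the 72 matched members (15.3%), against 1.87% of all 32851 promoters in the table and 2.52% of those of protein-coding genes. The ETS word was found for 17 members (23.6%), against 11.6% of coding promoters, and the YY1 word for 8 (11.1%), against 1.83%. These member shares count genes, while the shares beside them count promoters. Counted by promoter, the NRF1, ETS and YY1 words stood in 14.3%, 22.1% and 10.4% of the members' promoters. The word for oestrogen-related receptors was found for Atp5g3 alone. All 11 members with the NRF1 word had their highest level in library 1, where 22.1% of all 9852 genes tested had theirs, as had 16 of 17 with the ETS word, 7 of 8 with the YY1 word and 36 of the 40 tested members with none of the words. A match is a run of letters and not a measured binding site.

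The kept spots numbered 1662, 715, 1296 and 943 in libraries 1 to 4, with 13304973, 5223890, 12533691 and 9533952 UMIs. Of 2796 barcode sequences, 1460 occurred in more than 1 library, since capture areas carry the same barcodes. Markers of the labelled tissue were present in every library, with summed levels of 1540 to 2010 counts per 1000000 UMIs (CPM) for granule cells and 1416 to 2313 CPM for mitral and tufted cells, and no gene of either list was at 0. The libraries stood apart in the mitral and tufted cell list, at 2313, 2046, 1491 and 1416 CPM in libraries 1 to 4, and in other lists. Reactive glia genes summed to 198.6, 187.8, 2035 and 1690 CPM in libraries 1 to 4, phagocyte genes to 317.6, 303.6, 1290 and 1157 CPM, and forebrain excitatory neuron genes to 1180, 1135, 2340 and 2424 CPM. Leptomeningeal genes summed to 3220, 4487, 8284 and 6074 CPM. Periglomerular neuron genes, at 1803, 1597, 593.8 and 610.3 CPM, were highest in library 1 and lowest in library 3, as the nuclear members were. The same extreme libraries held for sensory axon genes, at 1456, 1134, 573.1 and 881.4 CPM, and fast-spiking interneuron genes, at 361.1, 347.6, 263.4 and 285.3 CPM. Their part in the differences between libraries that follow was not tested, and within a library fewer cells of a type and less RNA per cell cannot be told apart.

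The mitochondrially encoded genes made up 8.93% of the UMIs in library 1, 9.55% in library 2, 7.34% in library 3 and 7.46% in library 4. Library 2 had the highest share and library 3 the lowest, a ratio of 1.3003 (1.296 to 1.305). Of the 12 tested genes, 12 were highest in library 2, as were 30.5% of all 9852 genes tested, and 11 were lowest in library 3, as were 22.9% of all genes. The median of their ratios between the extreme libraries was 1.37, against 1.24 over all genes. Of the 12, only mt-Nd4l was past 1.5-fold, as were 19.6% of all genes.

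The 7 mitochondrial genes of complex I, which encode membrane subunits that pump protons and bind ubiquinone, differed most between libraries. Their summed level was 19796, 21452, 14808 and 15232 CPM in libraries 1 to 4, and the ratio between the highest and the lowest was 1.45 (1.44 to 1.46). The level of mt-Nd1, at the ubiquinone end of the membrane arm, was 4928, 5326, 3627 and 3684 CPM, a ratio of 1.47 (1.45 to 1.49). The level of mt-Nd2 was 5311, 5723, 4005 and 4204 CPM, a ratio of 1.43 (1.41 to 1.45). For both, library 2 was highest and library 3 lowest, and the intervals of those libraries did not overlap. The level of mt-Nd3 was 2143, 2343, 1586 and 1603 CPM, a ratio of 1.48 (1.44 to 1.51). The level of mt-Nd4 was 6279, 6858, 4702 and 4797 CPM, a ratio of 1.46 (1.44 to 1.48). The level of mt-Nd4l, which shares a bicistronic RNA with mt-Nd4 and overlaps it, was 254.0, 266.1, 173.1 and 192.8 CPM, a ratio of 1.54 (1.44 to 1.64). Reads of overlapping genes such as these cannot be cleanly assigned. The other members of the set were mt-Nd5 at 876.6, 929.0, 709.4 and 744.7 CPM, with a ratio of 1.31, and mt-Nd6 at 5.11, 6.70, 6.38 and 6.29 CPM. mt-Nd6 is the single protein gene on the light strand, and its interval of 0.846 to 1.999 around a ratio of 1.31 includes 1.

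Complexes III, IV and V followed with smaller ratios. mt-Cytb, the cytochrome b of complex III, stood at 10020, 10303, 7448 and 7587 CPM, a ratio of 1.38 (1.37 to 1.40). The catalytic subunit gene of complex IV, mt-Co1, stood at 19858, 21254, 18246 and 18608 CPM. Its ratio of 1.16 (1.16 to 1.17) was the narrowest of the mitochondrial genes. mt-Co2, the subunit that takes electrons from cytochrome c, stood at 8229, 8839, 6995 and 7044 CPM, a ratio of 1.26 (1.25 to 1.28). mt-Co3 stood at 17355, 18517, 14493 and 14931 CPM, a ratio of 1.28 (1.27 to 1.29). The order of the libraries was thus the same for the 3 genes of complex IV while the size of the difference was not. For complex V, mt-Atp6, a proton channel subunit, stood at 13931, 14930, 11302 and 11022 CPM, a ratio of 1.35 (1.34 to 1.37). mt-Atp8, which overlaps mt-Atp6 on the same RNA, stood at 152.4, 164.6, 122.2 and 128.0 CPM, a ratio of 1.35 (1.24 to 1.47). mt-Atp6 was the tested mitochondrial gene whose lowest library was library 4. Within the mitochondrial transcripts, mt-Co1 took 22.2%, 22.3%, 24.9% and 25.0% of the UMIs in libraries 1 to 4 and mt-Nd4 took 7.03%, 7.18%, 6.40% and 6.43%.

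The nuclear members made up 5.18%, 4.86%, 4.14% and 4.30% of the UMIs in libraries 1 to 4. Here library 1 was highest and library 3 lowest, with a ratio of 1.25 (1.247 to 1.256). Of the 86 tested nuclear members, 78 were highest in library 1, as were 22.1% of all genes tested, and 67 were lowest in library 3. Single members differed little between libraries: 3 of 86 were past 1.5-fold, against 19.6% of all genes, and 2 of them past 2-fold, against 7.85%. These were Ndufa4l2, Cox6a2 and Cox6b2, which are isoforms described further on. The count of 3 was 0 without library 1, without library 3 or without library 4, and 2 without library 2. These lower counts came from the minimum of UMIs per gene, which the 3 genes passed only narrowly with all libraries. A gene that fell below it was no longer tested, so the counts do not show whether the differences depend on a single library. The median ratio of the 86 was 1.26, close to the 1.24 of all genes and the 1.21 of the 978 genes with at least 7000 UMIs.

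Among the 37 nuclear subunits of complex I, the summed level was 15475, 14499, 12414 and 12982 CPM, a ratio of 1.25 (1.24 to 1.25), and 35 of 37 were highest in library 1. Ndufa13, an accessory subunit also known as GRIM-19, stood at 751.9, 723.2, 603.5 and 606.3 CPM, a ratio of 1.25. Ndufa3, an accessory subunit of the membrane arm, stood at 791.7, 753.3, 627.5 and 656.0 CPM, a ratio of 1.26. Ndufs5, an accessory subunit on the intermembrane side, had the widest ratio of them, 1.43 (1.38 to 1.48), with 591.4, 566.2, 413.4 and 432.0 CPM. The others of the 5 with the most UMIs were Ndufc1, Ndufb1-ps and Ndufa5, with ratios of 1.35, 1.16 and 1.32. Ndufb8, an accessory subunit of the membrane arm, was at the other end with 513.2, 472.3, 468.8 and 488.8 CPM and the narrowest ratio of all tested members, 1.09 (1.06 to 1.13). Ndufa8 stood near it with a ratio of 1.12 (1.07 to 1.18). The 8 assembly factors, which help to build complex I and are not part of it, summed to 404.7, 391.9, 337.8 and 367.2 CPM. Of these, Ndufaf8 and Ndufaf1 had ratios of 1.10 (1.002 to 1.21) and 1.12 (0.886 to 1.41), so that Ndufaf1 did not differ between libraries beyond counting error. The interval of Ndufaf8 barely excludes 1 and does not allow for the choice of libraries, so no difference is read from it.

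The 8 nuclear members of complex III summed to 5012, 4672, 3896 and 4062 CPM, a ratio of 1.29 (1.27 to 1.302). Uqcrq, a small subunit bound to cytochrome b, stood at 1062, 942.4, 778.1 and 794.8 CPM, with the widest ratio of the complex, 1.37 (1.33 to 1.40). Uqcrh, the hinge protein beside cytochrome c1, stood at 770.9, 734.7, 591.2 and 613.0 CPM, a ratio of 1.304 (1.27 to 1.34). Uqcr11, Uqcr10 and Uqcrb had ratios of 1.25, 1.25 and 1.29. All 5 were highest in library 1 and lowest in library 3.

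The nuclear members of complex IV number 20, Ndufa4 and Ndufa4l2 being counted with it, and summed to 15498, 14464, 12507 and 13035 CPM, a ratio of 1.24 (1.23 to 1.25). Cox4i1, a subunit through which ATP regulates the enzyme, stood at 1724, 1582, 1413 and 1467 CPM, a ratio of 1.22 (1.197 to 1.25). Cox8a, the smallest subunit, stood at 2193, 2112, 1945 and 1995 CPM, a ratio of 1.13 (1.11 to 1.15). Cox5a, which binds the matrix side of the enzyme, had the widest ratio of the widely expressed subunits, 1.46 (1.42 to 1.51), with 844.0, 780.6, 577.2 and 624.7 CPM. Cox6c, Cox7c and Ndufa4 had ratios of 1.23, 1.26 and 1.297. Each of these 6 was highest in library 1 and lowest in library 3.

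For the ATP synthase, 17 nuclear members summed to 15435, 14620, 12265 and 12515 CPM, a ratio of 1.26 (1.25 to 1.27), and 17 of 17 were highest in library 1. The catalytic beta subunit gene Atp5b stood at 1503, 1473, 1148 and 1100 CPM, a ratio of 1.37 (1.33 to 1.40). Atp5e, the small epsilon subunit of the rotor, stood at 1156, 1083, 844.5 and 855.2 CPM, a ratio of 1.37 (1.33 to 1.40). The alpha subunit gene Atp5a1 stood at 1136, 1113, 953.5 and 933.9 CPM, a ratio of 1.22 (1.18 to 1.25). Atp5j2 and Atp5md had ratios of 1.31 and 1.15, and Atp5f1, subunit b of the stator, had 1 of the 5 narrowest ratios at 1.12 (1.08 to 1.15). The 3 genes that encode the same c-ring protein were close to constant in proportion between whole libraries. Atp5g1 took 36.9%, 36.1%, 36.6% and 37.4% of their joint UMIs in libraries 1 to 4, Atp5g2 24.2%, 25.2%, 25.2% and 25.1%, and Atp5g3 39.0%, 38.6%, 38.2% and 37.5%. The interval of Atp5g3 in library 1, 38.3% to 39.6%, did not overlap that in library 4, 36.6% to 38.29%.

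The ratio of mitochondrially encoded to nuclear UMIs was 1.72 (1.719 to 1.729), 1.962 (1.953 to 1.972), 1.77 (1.766 to 1.778) and 1.74 (1.729 to 1.742) in libraries 1 to 4. It was highest in library 2, and without library 2 the ratio between the highest and lowest library was 1.03 in place of 1.14. By complex it stood at 1.28, 1.48, 1.19 and 1.17 for complex I and at 2.93, 3.36, 3.18 and 3.11 for complex IV. Library 1 was therefore lowest for complex IV and second highest for complex I.

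**Figure D1:**
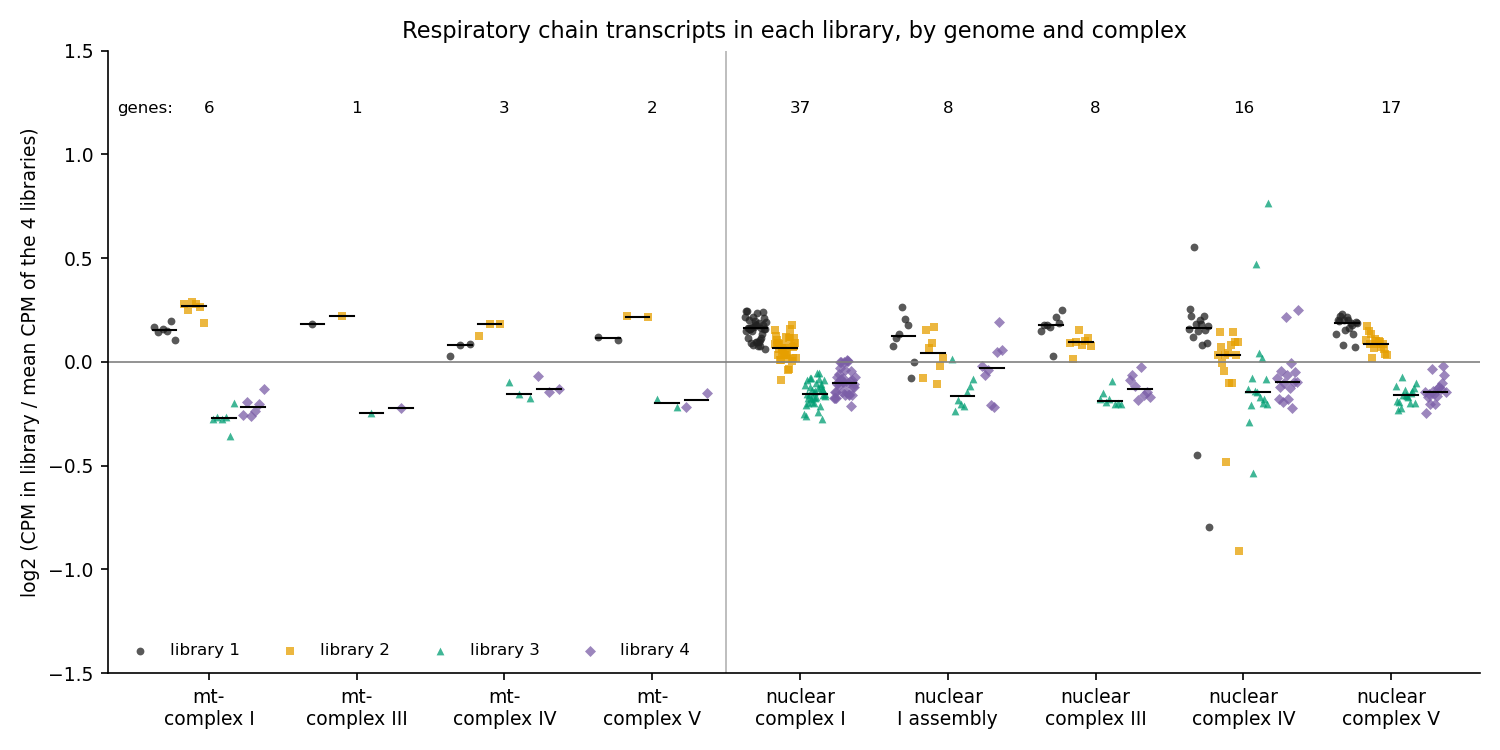
Each point is 1 of the 98 tested members, placed by the log2 of its CPM in a library over its mean CPM of the 4 libraries, in columns by genome and complex with the number of genes at the top; bars are medians. The mitochondrial columns are highest in library 2 and the nuclear ones in library 1, and the nuclear points far from the rest in complex IV are Ndufa4l2, Cox6a2 and Cox6b2.

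Spots were grouped into 10 regions by a clustering that used no member, marker, ribosomal protein or globin gene, and each region is named by its leading gene, a name that stands for no cell type. Only values of at least 30 spots in a library are given. Across regions the mitochondrial share varied far more than the nuclear one. The highest region exceeded the lowest 5.45-fold in library 1, 5.32-fold in library 2, 4.02-fold in library 3 and 5.20-fold in library 4 for the mitochondrial genes. For the nuclear members the same ratios were 1.27, 1.24, 1.26 and 1.27.

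The lowest mitochondrial share was that of the Cacna1h region, with 2.33%, 2.77%, 2.32% and 2.07% of the UMIs in libraries 1 to 4, beside 4.27%, 4.14%, 3.73% and 3.79% for the nuclear members. Nuclear UMIs outnumbered mitochondrial ones there, with a ratio of mitochondrial to nuclear UMIs between 0.546 and 0.668. Granule cell genes were higher in this region, with 3862 to 4368 CPM over the libraries against 1363 to 1683 CPM in the remaining spots, for 5 of 5 genes of the list. Genes of mitral and tufted cells were lower, with 494.5 to 606.2 CPM against 1459 to 2454 CPM, and none of the 5 was at 0. Oligodendrocyte genes were also higher, with 2056 to 2607 CPM against 959.4 to 1382 CPM for 6 of 6 genes, as were migrating neuroblast genes, with 473.6 to 738.8 CPM against 262.8 to 301.4 CPM for 4 of 5. Their part in the mitochondrial share was not tested. Its spots were also shallow, with a median of 2696 UMIs. The Klhl30 region was next, with mitochondrial shares of 3.83%, 4.90%, 5.16% and 4.57%, but its nuclear shares of 5.44%, 5.15%, 4.69% and 4.81% were the highest of the regions in each of the libraries. This region was deep, with a median of 12439 UMIs per spot, and held more UMIs of all 5 mitral and tufted cell genes, 3172 to 3891 CPM against 1260 to 2052 CPM.

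The highest mitochondrial shares in libraries 1 and 2 were 12.5% and 14.7% in the Otop2 region, where the nuclear shares were 5.36% and 5.09%, and 12.7% and 10.4% in the Lcn11 region, where the nuclear shares were 4.51% and 4.37%. The Otop2 region also had more UMIs of all 5 mitral and tufted cell genes, 2894 to 3028 CPM against 1688 to 2002 CPM. The Lcn11 region had more of all 5 sensory axon genes, 8541 to 10244 CPM against 742.0 to 778.4 CPM, and of all 6 nasal mucosa genes. In libraries 3 and 4 the highest shares, 9.34% and 10.8%, were those of the Fmod region, where leptomeningeal genes summed to 37045 to 48702 CPM against 3434 to 3528 CPM elsewhere and the nuclear share was 3.74% and 3.80%. The Klhl30 and Otop2 regions thus both had more mitral and tufted cell UMIs and a high nuclear share, while the mitochondrial share was low in the former and high in the latter. Their granule cell genes differed. These summed to 2216 to 2597 CPM in Klhl30 against 1461 to 1916 CPM in the remaining spots, with 5 of 5 genes higher. In Otop2 they summed to 1659 to 1701 CPM against 1880 to 2140 CPM, although 4 of 5 genes were higher with all libraries pooled. The part of this list in the mitochondrial share was not tested.

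The remaining regions lay between. In libraries 3 and 4 the Car9 region, with a higher level of all 5 reactive glia genes than elsewhere, had mitochondrial shares of 9.12% and 9.22%. The Trbc2 region, with the highest level of forebrain excitatory neuron genes, had 8.59% and 8.56%, the Ces1a region, with the highest level of phagocyte genes, 6.33% and 6.54%, and the Lmo3 region, with the highest level of oligodendrocyte genes, 6.32% and 6.35%. In libraries 1 and 2 the Nppa region, with the highest level of periglomerular genes, had 8.57% and 9.40%.

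**Figure D2:**
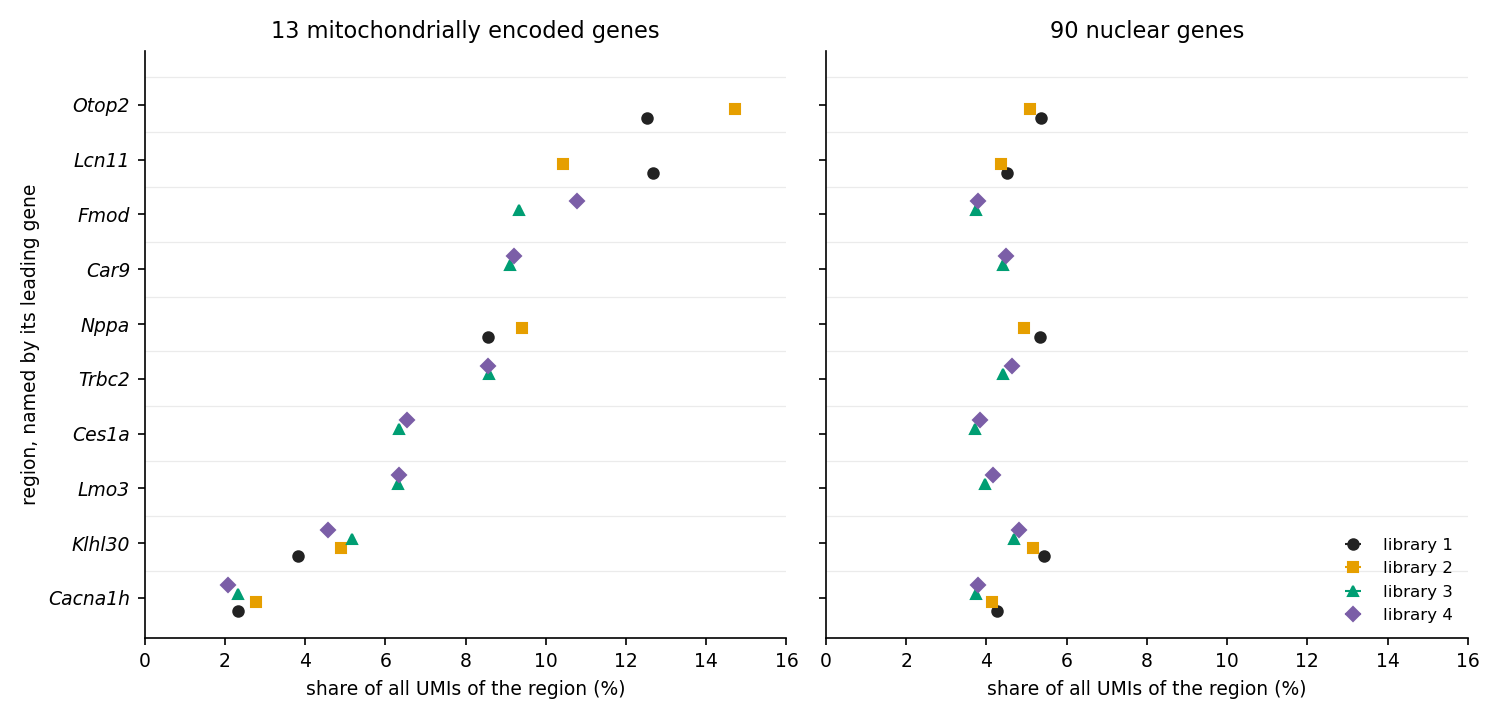
Points are the shares of all UMIs of a region (x axis, percent) that came from the mitochondrially encoded genes (left) and the nuclear members (right) for every library that holds 30 or more of its spots; exact intervals are narrower than the points. The left panel runs from 2.07% in Cacna1h to 14.7% in Otop2, and the right panel stays between 3.72% and 5.44%.

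Since the spots of the regions differed in depth, the shares were also taken from spots with 5000 to 10000 UMIs alone, in regions with at least 20 such spots. The mitochondrial range over regions was then 5.17-fold, 5.62-fold, 5.02-fold and 5.99-fold in libraries 1 to 4, as wide as before, and the nuclear range was 1.18, 1.14, 1.21 and 1.18. In such spots the Cacna1h region had mitochondrial shares of 2.44%, 3.06%, 2.38% and 2.29% and the Otop2 region 12.6% and 17.2% in libraries 1 and 2. The highest region was not always the same as over all spots. In library 1 it became Otop2, ahead of Lcn11 with 11.7%. In libraries 3 and 4 it became Trbc2, with 11.9% and 13.7%, ahead of Fmod with 10.3% and 11.8%. For the nuclear share in such spots, the Klhl30 region had 5.07% in library 1, below Otop2 with 5.21% and Nppa with 5.15%. In library 3 it stayed highest with 4.46%. In libraries 2 and 4 the Klhl30 region had 16 and 14 such spots, too few to be given.

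The regional difference was shared by the single mitochondrial genes, read here for genes with at least 500 UMIs in a library. In the Cacna1h region all 12 tested mitochondrial genes stood over 1.5-fold below the other spots of the same library, in each of the 4 libraries. Of all genes tested, 13.4%, 13.3%, 14.2% and 15.9% did so. Their median ratio to the rest was 0.239, 0.259, 0.287 and 0.251. Of the nuclear members, 5 of 79, 6 of 73, 2 of 77 and 4 of 76 did so, and their median ratios were 0.829, 0.826, 0.8996 and 0.870. mt-Co1 stood at 5611, 6395, 6459 and 5671 CPM in the region, which is 0.27, 0.27, 0.34 and 0.30 of its level in the remaining spots. mt-Nd2 stood at 1267, 1513, 1113 and 935 CPM, which is 0.22, 0.24, 0.26 and 0.21 of the rest.

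In the Klhl30 region 12, 12, 6 and 11 of the 12 mitochondrial genes were over 1.5-fold below the rest of libraries 1 to 4, as were 7.16%, 5.79%, 9.22% and 10.0% of all genes, and none of 79, 73, 77 and 76 nuclear members. In library 1 all mitochondrial ratios there lay between 0.285 and 0.429 while the nuclear ones lay between 0.763 and 1.45. The Otop2 region was the reverse: 12 of 12 mitochondrial genes were over 1.5-fold above the rest in libraries 1 and 2, as were only 1.31% and 2.41% of all genes, and 0 of 79 and 0 of 73 nuclear members. The ratio of mt-Co1 to the rest was 1.76 and 2.05. In the Lcn11 region 9 of 12 were that much higher in library 1, as were 4.92% of all genes, but none in library 2, as were 5.41%. In the Fmod region 1 of 12 was in library 3, as were 5.18% of all genes, and 7 of 12 in library 4, as were 4.25%.

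**Figure D3:**
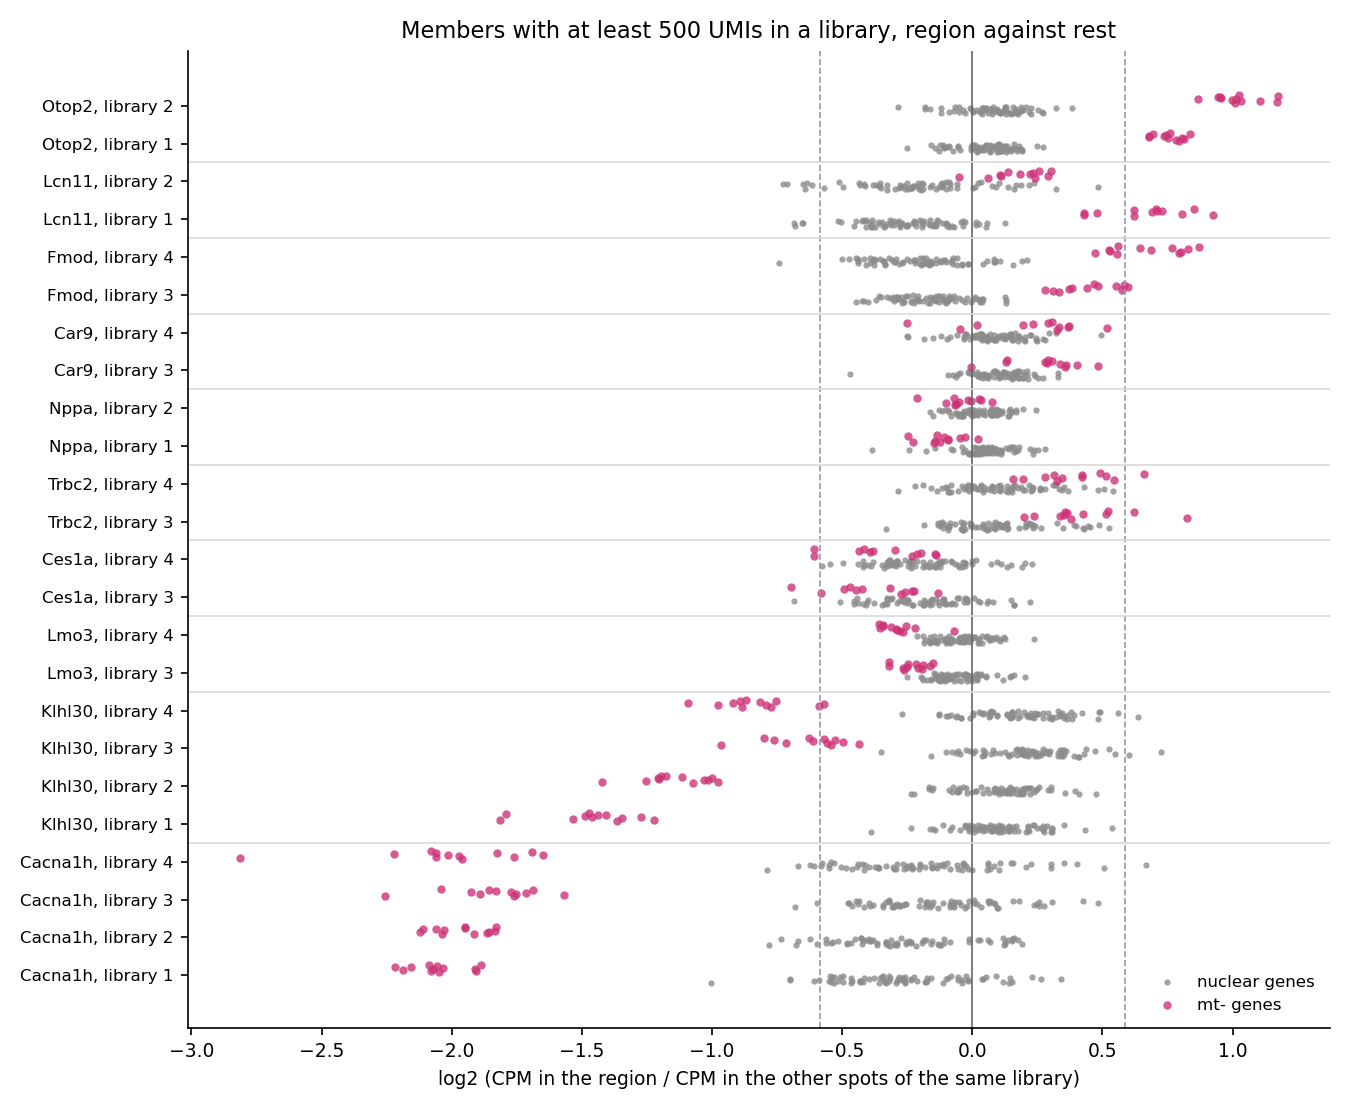
Each point is a member with at least 500 UMIs in a library, placed by the log2 of its CPM in a region over its CPM in the other spots of that library; dashed lines mark 1.5-fold. The mitochondrial genes of the Cacna1h and Klhl30 regions lie left of the nuclear ones, those of the Otop2 region right of them, and in the Nppa and Lmo3 regions both stay within 1.5-fold.

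Some nuclear members had a regional pattern of their own. Atp5e was lowest in the Cacna1h region in each library, at 599.4, 663.4, 541.1 and 503.9 CPM against 1202, 1140, 867.6 and 871.4 CPM in the remaining spots, a ratio of 0.50, 0.58, 0.62 and 0.58. Ndufb1-ps, a complex I subunit gene whose symbol marks it as a pseudogene, stood at 391.1, 395.5, 358.1 and 371.4 CPM there, 0.62, 0.63, 0.66 and 0.63 of the level in the rest. Cox6a1, the widespread isoform of the subunit, was lowest there in each library too, with a ratio of 0.66 in libraries 1 and 2. These 3 ratios were well above the mitochondrial ones of the same region. Cox5a was highest in the Klhl30 region in each library. In libraries 3 and 4 it stood there at 839.7 and 934.0 CPM against 553.1 and 601.3 CPM, a ratio of 1.52 and 1.55. Its lowest region was Lcn11 in libraries 1 and 2 and Fmod in libraries 3 and 4, and its range over regions was 1.99-fold, 1.81-fold, 1.89-fold and 2.42-fold. In the Trbc2 region Atp5md, a small subunit of the ATP synthase dimer, stood at 1738 and 1867 CPM in libraries 3 and 4, a ratio to the rest of 1.44 and 1.45. The median nuclear member had a range over regions of 1.43-fold, 1.40-fold, 1.46-fold and 1.53-fold, against 5.90-fold, 5.40-fold, 4.48-fold and 5.60-fold for the median mitochondrial gene.

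Over single spots, each thinned to 2000 UMIs, the mitochondrial share had a median of 7.95%, 7.70%, 6.50% and 6.45% in libraries 1 to 4. The 5th and 95th percentiles of the spots were 1.65% and 19.0% in library 1, 1.86% and 21.7% in library 2, 1.65% and 15.6% in library 3, and 1.505% and 17.2% in library 4. The coefficient of variation was 0.662, 0.706, 0.624 and 0.663, where counting error alone would give 0.0715 to 0.0805. The nuclear share had a coefficient of variation of 0.154, 0.150, 0.174 and 0.193, where counting error alone would give 0.0972 to 0.109. Spots with fewer than 2000 UMIs, 233, 89, 42 and 20 in number, were left out. The nuclear share thus lay much nearer to the spread of counting error than the mitochondrial share did.

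The mitochondrial and nuclear shares were weakly related over spots, with Spearman's rho of 0.08, 0.28, 0.22 and 0.25 over 1429, 626, 1254 and 923 spots. These spots share a library, a total of UMIs and neighbouring tissue, so the values are descriptions. Within regions the sign varied: in the Otop2 region rho was -0.20 in library 1 and -0.36 in library 2. In libraries 3 and 4 it was -0.23 and -0.26 for the Trbc2 region, against 0.42 and 0.56 for the Lmo3 region. When the nuclear share was taken of the UMIs that were not mitochondrial, rho was 0.44, 0.62, 0.45 and 0.48. Taken so, it was positive in every region and library given. It was 0.34 and 0.31 in the Otop2 region, 0.06 and 0.10 in Trbc2 and 0.63 and 0.70 in Lmo3. The negative values were thus seen only where mitochondrial UMIs were part of the total of the nuclear share. Within the mitochondrial genome the complexes went together, with rho between complexes I and IV of 0.96, 0.96, 0.93 and 0.95. Between the nuclear members of complexes I and IV it was 0.29, 0.18, 0.27 and 0.35, and between mitochondrial and nuclear members of complex IV it was 0.08, 0.22, 0.22 and 0.20. Subunits of 1 complex that come from different genomes were therefore less alike over spots than different complexes of the mitochondrial genome, although the sparser nuclear counts alone lower a rho.

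Over the same spots the mitochondrial share went against the granule cell genes, with rho of -0.38, -0.45, -0.37 and -0.35, and with the sensory axon genes, with rho of 0.43, 0.36, 0.26 and 0.28. Granule cell genes were not alone in this: rho was also negative for oligodendrocyte genes (-0.24, -0.33, -0.32 and -0.17) and migrating neuroblast genes (-0.15, -0.16, -0.28 and -0.29). For the neuron list the mitochondrial share gave -0.34, -0.28, -0.04 and -0.16. It also went with astrocyte genes (0.29, 0.47, 0.22 and 0.28), leptomeningeal genes (0.28, 0.41, 0.38 and 0.42) and red blood cell genes (0.34, 0.25, 0.39 and 0.40). The nuclear share went with the mitral and tufted cell genes (0.43, 0.47, 0.38 and 0.34), where the mitochondrial share gave 0.05, 0.25, 0.16 and 0.05. Depth moved with the nuclear share more than with the mitochondrial one: rho with the UMIs of a spot was 0.53, 0.51, 0.38 and 0.45 for the nuclear and 0.14, 0.36, 0.19 and 0.04 for the mitochondrial share.

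**Figure D4:**
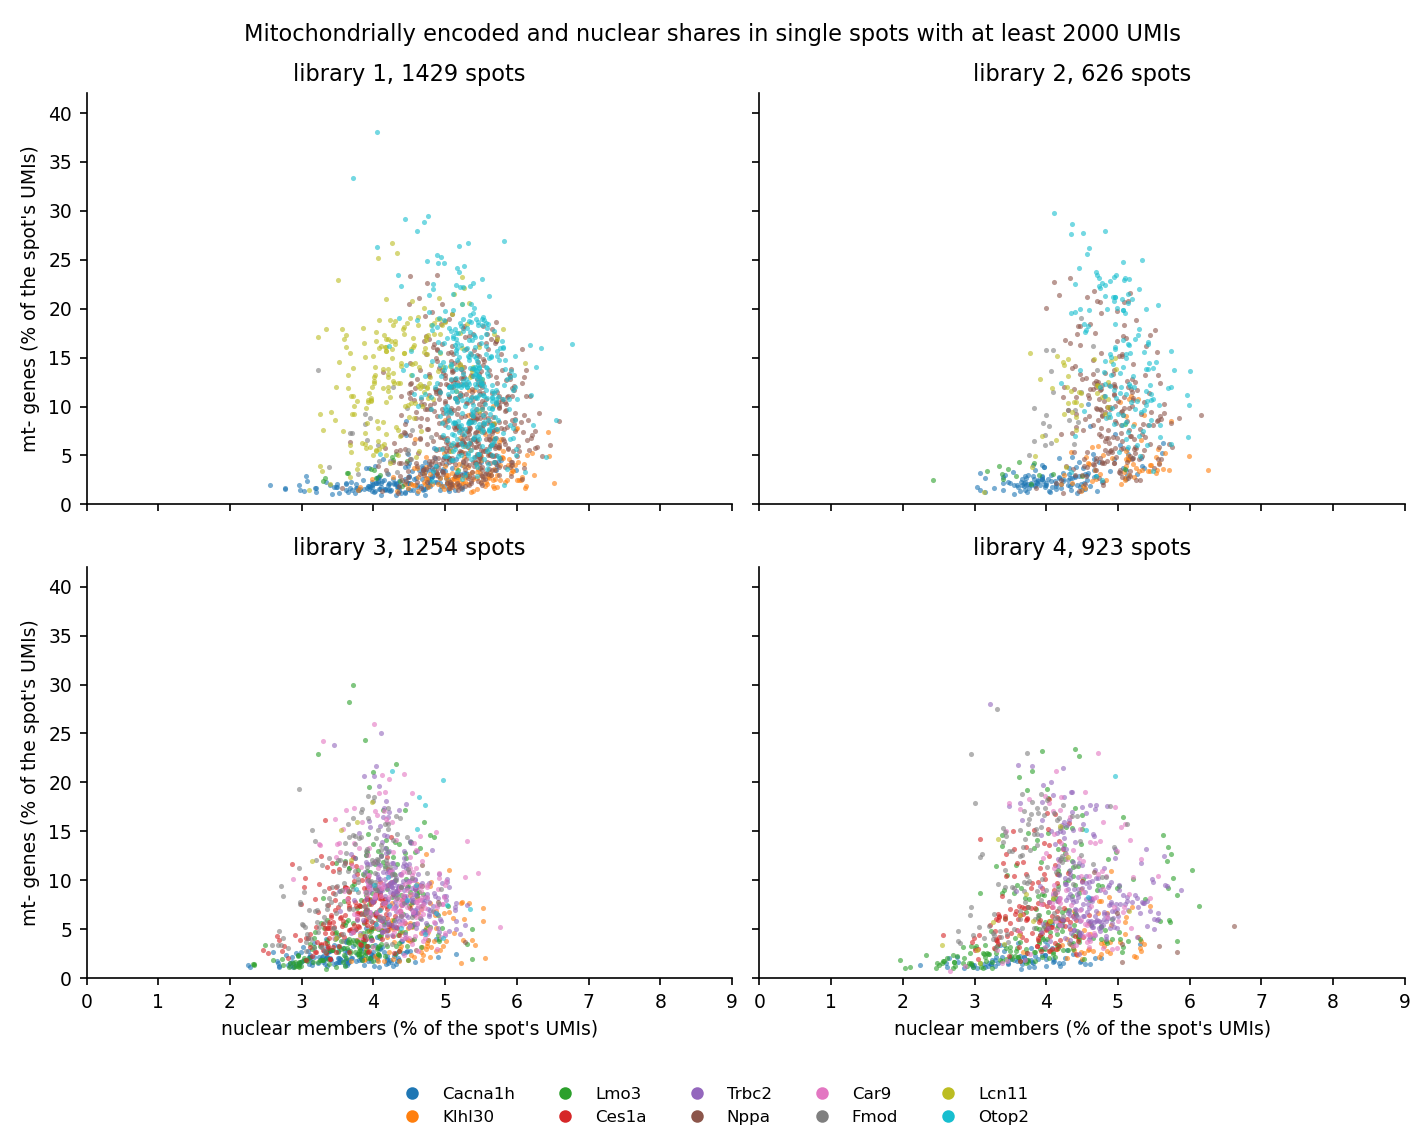
Each point is a spot with at least 2000 UMIs, by its nuclear share (x axis) and mitochondrially encoded share (y axis) of UMIs, in percent, without thinning, coloured by region, in 1 panel per library. Spots of like nuclear share spread widely on the y axis, and those of the Cacna1h and Klhl30 regions lie mostly along the bottom, with Klhl30 farther right.

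Region makeup differs between libraries, and the Cacna1h and Klhl30 regions alone had at least 30 spots in each of them. Inside these the nuclear share again peaked in library 1 and was smallest in library 3, with ratios of 1.14 (1.13 to 1.16) and 1.16 (1.15 to 1.17). In the Cacna1h region 38 of 70 tested nuclear members were highest in library 1, as were 31.5% of all genes, and in the Klhl30 region 52 of 74, as were 36.5%. The mitochondrial share did not keep one order. In the Cacna1h region library 2 had the highest and library 4 the lowest share, a ratio of 1.34 (1.302 to 1.37), and in the Klhl30 region library 3 had the highest and library 1 the lowest, a ratio of 1.35 (1.33 to 1.36). With both regions pooled the mitochondrial share was 3.30%, 3.90%, 3.87% and 3.60% in libraries 1 to 4, so that library 1 was lowest in place of library 3. The ratio of mitochondrial to nuclear UMIs was 0.657, 0.833, 0.909 and 0.816, highest in library 3 in place of library 2.

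The tissue-restricted isoforms of complex IV were rare beside their partners and held the widest differences between libraries among the nuclear members. Cox4i2, the isoform known from lung and induced by low oxygen, stood at 3.01, 3.45, 11.6 and 11.2 CPM in libraries 1 to 4. Its ratio was 3.87 (2.71 to 5.64), on 40, 18, 146 and 107 UMIs, and its share of the joint UMIs with Cox4i1 was 0.174%, 0.217%, 0.818% and 0.759%. It was highest in library 3 and lowest in library 1, against the order of Cox4i1. Ndufa4l2, a paralogue of Ndufa4 that is also induced by low oxygen, stood at 7.67, 7.08, 22.7 and 15.8 CPM, a ratio of 3.20 (2.27 to 4.64). It was highest in library 3, where it made up 1.74% (1.54 to 1.95) of the joint UMIs with Ndufa4, and lowest in library 2 with 0.447% (0.315 to 0.615). Cox6b2, the testis isoform, stood at 10.97, 10.7, 20.7 and 17.4 CPM, a ratio of 1.94 (1.44 to 2.63), with the same extreme libraries as Ndufa4l2. The mural cell list, whose cells are known to use Cox4i2 and Ndufa4l2, summed to 228.1, 235.1, 199.7 and 200.1 CPM. Its part in these differences was not tested.

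The muscle isoforms had other patterns. Cox6a2, the heart and skeletal muscle isoform that is also known from parvalbumin neurons, stood at 17.96, 11.9, 8.46 and 10.7 CPM, a ratio of 2.12 (1.68 to 2.70), with its maximum in library 1 and its minimum in library 3. The fast-spiking interneuron list stood at 361.1, 347.6, 263.4 and 285.3 CPM beside it, and its part in that difference was not tested. Cox8b stood at 7.74, 6.13, 7.98 and 11.7 CPM, a ratio of 1.92 (1.28 to 2.94), and Cox7a1 at 23.6, 19.1, 21.1 and 18.1 CPM, a ratio of 1.3006 (1.08 to 1.58). Cox7b2 had 72 UMIs in all and a ratio of 1.38 whose interval, 0.741 to 2.61, includes 1. Striated muscle genes summed to 20.3 to 23.3 CPM over the libraries, and 4 of 7 were at 0 in at least 1 of them.

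**Figure D5:**
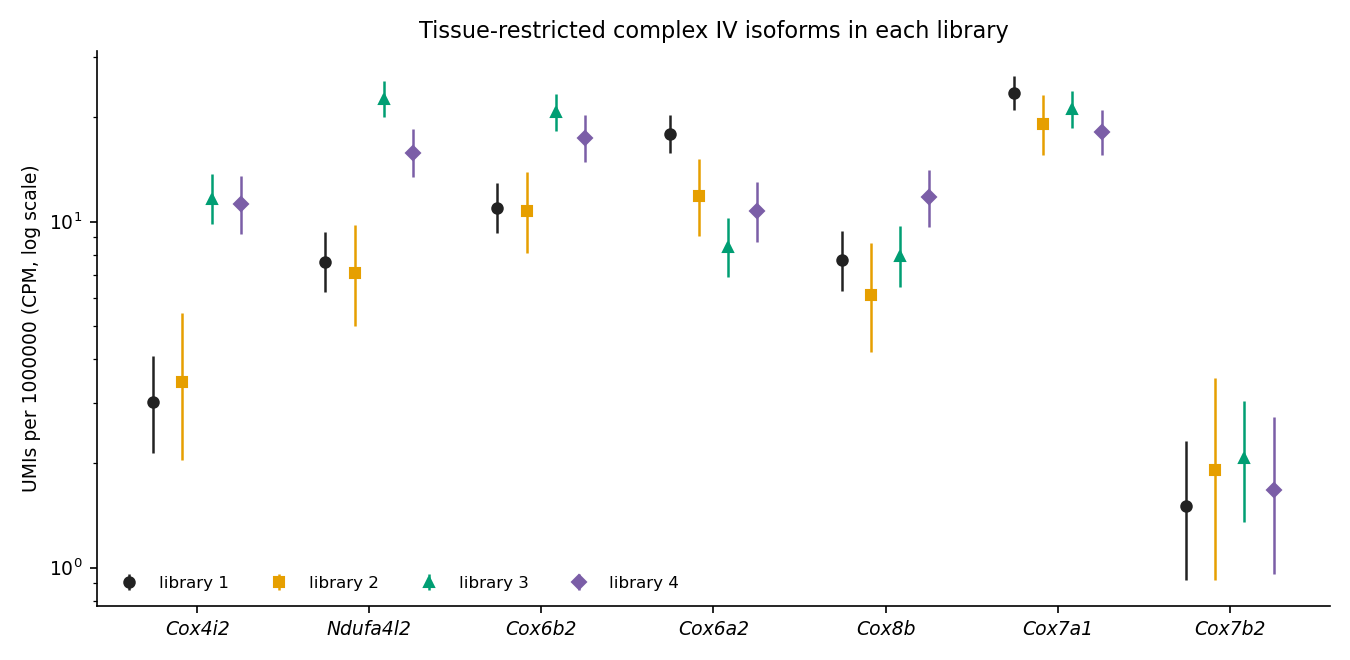
Level in CPM (log axis) of 7 tissue-restricted complex IV isoforms in each library, with exact Poisson intervals as bars. Cox4i2 runs from 3.01 to 11.6 CPM and Ndufa4l2 from 7.08 to 22.7 CPM, both highest in library 3, and Cox6a2 runs from 8.46 to 17.96 CPM, highest in library 1.

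By region, Cox4i2, Cox7a1, Cox8b and Ndufa4l2 were highest in the Ces1a region in libraries 3 and 4, where all 8 phagocyte genes and all 5 reactive glia genes were higher than elsewhere. So were all 6 olfactory ensheathing glia genes, at 6808 to 7698 CPM against 1781 to 1926 CPM, and all 5 red blood cell genes, at 1694 to 3659 CPM against 1061 to 1237 CPM. Their part in the isoform levels was not tested. Cox8b stood there at 38.4 CPM (30.3 to 48.0) in library 3 and 49.1 CPM (38.3 to 61.9) in library 4, against 2.18 and 5.07 CPM in the remaining spots, a ratio of 17.6 (10.9 to 29.4) and 9.68 (6.50 to 14.6). Cox4i2 stood at 29.9 and 33.9 CPM against 8.17 and 7.17 CPM, a ratio of 3.66 (2.59 to 5.15) and 4.72 (3.16 to 7.03). Ndufa4l2 stood at 51.9 and 33.9 CPM against 17.1 and 12.6 CPM, a ratio of 3.03 (2.36 to 3.88) and 2.69 (1.87 to 3.81). Each ratio was above 1 beyond counting error in both libraries. The lead of Cox7a1 was within counting error in library 3, at 39.4 CPM (31.2 to 49.1) against 38.7 CPM (28.8 to 50.8) in the Fmod region. In library 4 Cox7a1 stood at 40.1 CPM (30.4 to 51.8) against 26.7 CPM (16.3 to 41.3) in Fmod. In library 1 it stood at 43.9 CPM in the Lcn11 region and 33.4 CPM in the Nppa region. Striated muscle genes summed to 10.4 to 11.97 CPM in the region against 21.9 to 25.6 CPM elsewhere, with 4 of 7 higher and Ttn and Myh4 at 0, and mural cell genes to 332.2 to 340.1 CPM against 174.5 to 175.1 CPM, with 6 of 7 higher. The part of mural cells in the levels of Cox4i2 and Ndufa4l2 was not tested. Nasal mucosa genes summed to 1699 to 3632 CPM in the region against 95.9 to 182.1 CPM elsewhere, with 3 of 6 higher, and their part was not tested either.

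Cox6b2 stood at 42.4 and 38.0 CPM in the Ces1a region of libraries 3 and 4, against 16.6 and 13.7 CPM in the remaining spots, a ratio of 2.55 (1.95 to 3.32) and 2.77 (1.97 to 3.86), and in library 4 this was its highest region. Outside that region, Cox8b and Cox6b2 were also higher in the Lcn11 region of library 1, at 28.4 and 35.3 CPM against 5.76 and 8.65 CPM, a ratio of 4.93 (3.16 to 7.56) and 4.08 (2.77 to 5.91). Cox6b2 was also higher in the Fmod region, at 48.5 and 34.7 CPM in libraries 3 and 4, a ratio of 2.78 (2.06 to 3.70) and 2.18 (1.38 to 3.33). All 6 olfactory ensheathing glia genes were higher in these regions too, at 6856 to 9437 CPM in Lcn11 and 4769 to 5524 CPM in Fmod, and their part was not tested. Cox6a2 stood at 9.98 and 11.1 CPM in the Ces1a region of libraries 3 and 4. In the Cacna1h region of library 1 it had 0 UMIs, where 3 UMIs would be 2.95 CPM, against 19.5 CPM in the remaining spots. Cox4i2 had 0 UMIs there as well, but its interval of 0 to 3.62 CPM holds its level of 3.01 CPM in the whole of library 1. In the Cacna1h region of libraries 3 and 4 Cox4i2 stood at 10.2 and 9.46 CPM. In the Otop2 region of library 1 Cox6a2 stood at 24.8 CPM against 14.98 CPM, a ratio of 1.66 (1.27 to 2.16). Library 2 did not show this: Cox6a2 stood at 10.3 CPM (5.90 to 16.8) in its Otop2 region, beside 11.9 CPM in the whole library.

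Genes of the same pathway outside the name rule were read from 8 lists with 106 genes, of which 104 were in the matrix and 92 passed the minimum. Of these, 54 were highest in library 1 (58.7%), against 22.1% of all genes, and 6 were past 1.5-fold (6.52%), against 19.6%. All 4 genes of complex II, which is encoded by the nucleus alone, were highest in library 1, with a summed level of 893.8, 863.9, 773.6 and 771.5 CPM. Of the 15 genes of the tricarboxylic acid cycle, which feeds the chain with NADH and succinate, 13 were highest in library 1. Of the 12 tested genes of mitochondrial DNA maintenance and transcription, 3 were highest in library 1 and 7 in library 2, with a summed level of 495.4, 514.0, 470.3 and 445.6 CPM. Of the 7 tested nuclear regulators, none was highest in library 1 and 4 were highest in library 2. Library 1 was the highest for 5 of 11 genes of cytochrome c, cytochrome c1 and ubiquinone, 5 of 9 of ATP, ADP and phosphate transport, and 8 of 12 of protein import.

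The 6 genes past 1.5-fold were of different roles. Cox15, which makes the haem A of complex IV, stood at 20.2, 21.8, 6.62 and 7.13 CPM, a ratio of 3.30 (2.46 to 4.43). Ppargc1a, a coactivator that drives mitochondrial biogenesis, stood at 60.4, 62.4, 34.4 and 36.1 CPM, a ratio of 1.81 (1.57 to 2.10). Esrra, the oestrogen-related receptor that works with it, stood at 107.9, 111.0, 75.5 and 69.3 CPM, a ratio of 1.60 (1.43 to 1.79). Each was highest in library 2. The 22 tested assembly genes of complexes III and IV, Cox15 among them, had a median ratio of 1.15, and 16 were highest in library 1. Cycs, the electron carrier cytochrome c, stood at 431.6, 389.0, 287.2 and 310.1 CPM, a ratio of 1.503 (1.44 to 1.57). Slc25a5, which exchanges ADP for ATP across the inner membrane, stood at 545.0, 491.2, 372.5 and 358.7 CPM, a ratio of 1.52 (1.46 to 1.58). Ucp2, an uncoupling carrier known from phagocytes, stood at 32.9, 26.0, 38.9 and 39.1 CPM, a ratio of 1.503 (1.23 to 1.84), and was the gene of the 6 that was highest in library 4.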

How the data were processed

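The deposited matrix gives counts: whole numbers of UMIs for each gene in each spot. It came from Space Ranger 1.3.1, per the file headers. GRCm39 is the build named by the submitters' processing notes, but 32285 genes is also the size of the mm10 annotation supplied by the vendor, which leaves the build uncertain. Its annotation, strand setting and treatment of near-identical copies (pseudogenes, nuclear copies of mitochondrial DNA) were not given in the sources used here.

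Spots with at least 500 UMIs were kept (4616 of 4713) and split into libraries by the barcode number. The control and mutant comparison was planned only if a library could be tied to a sample, and was not run. Levels are CPM of summed UMIs, with exact Poisson intervals, exact conditional binomial intervals for ratios and Clopper-Pearson intervals for shares. A sum of 3 UMIs is 0.225 to 0.574 CPM. The libraries were not rescaled: the median gene lay within 0.02 (log2) of its mean in each library, and the median nuclear member at 0.17, 0.07, -0.16 and -0.11. For regions, counts were scaled to 10000 per spot, log-transformed, and 2000 variable genes reduced to 30 components, with 15 neighbours and Leiden clustering at resolution 0.8 (leidenalg 0.10.2, igraph 0.11.9, scikit-learn 1.9.0). Spots were thinned without replacement. Promoters are from RefSeq's table. Figures used matplotlib 3.10.9.

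Genes named in the text are the mitochondrial genes, the 5 nuclear subunits with the most UMIs in each complex, the 10 members with the widest and 5 with the narrowest ratio, the isoforms, and list genes past 1.5-fold, at most 3 a list. Ndufa11, Ndufs3, Atp5k and Atp5j were named for their promoters. Members, lists and rules were chosen with earlier results of these data known. The scripts were tested on simulated data.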

Additional observations from a re-analysis of the deposited data

Results flagged for a closer look

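The 97 spots under the minimum of 500 UMIs entered none of the values of the report and were used only where the minimum was dropped as an alternative. They were singled out because the members were detected in data outside the main measurement. Of their 27613 UMIs, 4.36% (4.12 to 4.60) came from mitochondrially encoded genes and 3.16% (2.96 to 3.37) from nuclear members. Both shares were below those of the kept spots of each library. Library 1 held 85 of these spots, library 2 held 3, library 3 held 5 and library 4 held 4.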

How the results depend on the processing

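No paired analysis was possible because the libraries carry no replicate number that the labels tie to a sample. A value is called moved where it left its 95% counting interval, the range over the 4 libraries (correlations and region ranges, given as medians over libraries) or 1.5 times a count. Ratios of the highest to the lowest library cannot fall below 1, so a change of order shows only in the library values. In the common regions the lowest mitochondrial share was that of library 1 (3.30%) in place of library 3 (3.87%), and the highest ratio of mitochondrial to nuclear UMIs that of library 3 (0.909) in place of library 2 (0.833). The mitochondrial ratio between libraries (1.3003) was 1.320 with spots of at least 2000 UMIs, 1.286 without ribosomal protein and globin genes in the denominator, 1.285 with size factors and 1.179 in the common regions alone, and 1.217 to 1.3003 when each library was left out in turn. The nuclear ratio (1.25) was 1.257 with spots of at least 2000 UMIs, 1.273 without mt- genes in the denominator, 1.262 with size factors and 1.182 in the common regions, and 1.174 to 1.251 with a library left out. The ratio for mitochondrial to nuclear UMIs (1.14) was 1.383 in the common regions and 1.028 to 1.138 with a library left out. The count of nuclear members past 1.5-fold (3) was 0 in the common regions, 5 with a minimum of 200 UMIs per gene, 0 with a minimum of 1000, and 0 to 2 with a library left out. The 3 genes had 509 to 628 UMIs in all and can fall below the minimum where UMIs are left out. A count of 0 therefore does not show that their differences were gone. The spot correlation (0.237) was 0.310 without thinning and 0.466 with the nuclear share of non-mitochondrial UMIs. The mitochondrial range over regions (5.26) was 3.63 at resolution 0.4, 7.07 at resolution 1.2 and 5.88 without mt- genes in the denominator. The nuclear range (1.26) was 1.206, 1.235 and 1.355 under the same settings, and 1.179 in spots of 5000 to 10000 UMIs. That band of depth, and leaving out libraries for correlations and region ranges, were chosen after seeing the data. Of 226 values of named members and isoform shares, 172 stayed within their tolerance and 54 moved. The cause of these shifts was not tested. Depth limits the members below the gene minimum most: Cox8c, Cox7b2, mt-Nd6, Cox4i2 and Cox8b.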

Other observations

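The labels put no library in a group, and the values of several members fell near each other in pairs. mt-Nd1 stood at 4928 and 5326 CPM in libraries 1 and 2 and at 3627 and 3684 CPM in libraries 3 and 4. Cox4i2 stood at 3.01 and 3.45 CPM in libraries 1 and 2 and at 11.6 and 11.2 CPM in libraries 3 and 4. Cox15, outside the name rule, stood at 20.2 and 21.8 CPM in libraries 1 and 2 and at 6.62 and 7.13 CPM in libraries 3 and 4. Cox8b was not so placed, with 7.74, 6.13, 7.98 and 11.7 CPM in libraries 1 to 4. No library was given to a mouse from these values.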
